A study of Mus musculus with 167 samples.

Results

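The microRNA (miRNA) miR-150 was followed through its mature arms, mmu-miR-150-5p and mmu-miR-150-3p, which were taken by name and make up 2 of the 1915 mature miRNAs counted in each of 5 tissues. Small RNA was sequenced from whole lung, heart and brain and from 2 fractions of blood, leukocytes (WBC) and erythrocytes (RBC), giving 167 libraries of 35 mice. Mice of the strains C3Hf/Sed/Kam (C3H) and C57Bl/6 (C57) had received whole thorax lung irradiation (WTLI), which exposes the chest to X-rays while lead shields the other parts, or a sham exposure. Tissues were collected from mice that lived to the endpoint, month 4 in C3H and month 6 in C57, so strain and time after exposure cannot be told apart. Lung, heart, brain and RBC each came from 8 sham and 7 irradiated C3H mice and from 15 sham and 5 irradiated C57 mice. WBC came from 5 sham and 6 irradiated C3H mice and from 11 sham and 5 irradiated C57 mice. All C3H mice were female, whereas the C57 sham mice were 8 males and 7 females and the irradiated C57 mice 4 males and 1 female. By the authors' age ranges the males were younger than the females at exposure, so sex and age cannot be told apart. The blood fractions were spun from terminal bleeds of the heart and were not sorted by cell type.

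MiR-150 is a miRNA of mature B, T and natural killer cells. It is scarce in lymphoid progenitors, rises as these cells mature, and represses the transcription factor Myb, which progenitors need. In whole organs it is often read as a trace of lymphocytes in the tissue, although other cells also carry some. Here the organs were taken after an infusion of PBS, and how much blood remained in them was not measured. In bulk samples of this kind, fewer lymphocytes and less miR-150 per lymphocyte cannot be told apart.

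The gene Mir150 lies on chromosome 7 (GRCm38, chr7:45121757-45121821, plus strand, 65 bases) and overlapped 0 other annotated genes. The nearest is the antisense gene Gm45552, which starts 96 bases downstream. Of the 2 arms, 1 matched the RefSeq table (GRCm38.p6). It is shown because it is the arm that was nearly missing from these libraries, with the seed, the bases 2 to 8 that pair with targets, in capitals (chr7:45121798-45121819, plus strand):
miR-150-3p: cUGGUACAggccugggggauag
Of the 1679 mature mouse miRNA names in that table, 0 others shared this seed.

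Nearly all counts came from the 5p arm. MiR-150-5p collected 181947 counts and miR-150-3p 3 counts over all libraries. The 3 counts of miR-150-3p fell in 3 libraries, 2 from lung and 1 from RBC. The 3p arm made up 0.00165% of the counts of both arms, with a 95% Wilson interval of 0.000561% to 0.00485%. In heart, brain and WBC the 3p count was 0. With 0 of 32946 counts in heart, a 3p share of up to 0.00911% is allowed, and the limits were 0.00788% in brain and 0.00729% in WBC. In a single library the floor of 3 counts was at most 1.67 reads per 1000000 counted (RPM). These intervals and floors cover counting error only. The 3p arm did not pass the low-count filter of the main fits, and with 3 counts in all differences between groups were not detectable at this depth. The exact permutation tests of WTLI against sham and of the 3p share between tissues gave adjusted p = 1 throughout. All further values are those of miR-150-5p.

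Library totals ran from 1794995 to 7865102 counts. The lowest count of miR-150-5p in any library was 65, in an RBC library of a C57 sham female, which is 20.1 RPM with a 95% Wilson interval of 15.7 to 25.6. Levels below are RPM, with the library total as denominator. MiR-208a-3p of heart muscle was higher in all 35 heart libraries than in any other library, and miR-124-3p of neurons likewise in all 35 brain libraries. In blood the separation was weaker. The share of the erythrocyte miRNA miR-451a was 1.45% ± 1.35 in WBC (SD, n = 27) and 1.45% ± 0.766 in RBC (SD, n = 35), and miR-223-3p, a granulocyte miRNA, was above every library of the other tissues in 13 of 27 WBC libraries.

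Averaged over the strains, miR-150-5p was found at a similar share in the 3 organs of sham mice, and at the lowest share in RBC. The mean over all libraries was 432 ± 216 RPM in lung (SD, n = 35), 370 ± 95.3 in brain (SD, n = 35), 368 ± 303 in WBC (SD, n = 27), 297 ± 129 in heart (SD, n = 35) and 126 ± 92.3 in RBC (SD, n = 35). By mean RPM it stood at place 63 of 1915 in WBC, 64 in heart, 73 in lung, 74 in RBC and 122 in brain. The spread between libraries was widest in blood, with a coefficient of variation of 82.2% in WBC and 73.4% in RBC, and narrowest in brain at 25.8%. In sham mice, with the strains weighted equally, the order of geometric means was lung at 412 RPM, brain at 354, heart at 351, WBC at 237 and RBC at 86.6. The organs were ordered differently within the strains. In C3H sham mice the geometric means were 524 RPM in lung, 325 in brain and 312 in heart. In C57 sham mice they were 324 RPM in lung, 385 in brain and 394 in heart. The difference in order was not tested.

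Neighbours in that order were compared within sham animals, with strains and sexes pooled, by permutation tests (two-sided, adjusted over 4 pairs). Lung exceeded brain by 0.08 on the log2 RPM scale, in 13 of 23 animals (adjusted p = 0.841). Brain and heart differed by 0.00 (adjusted p = 0.989). Heart exceeded WBC by 0.45, in 8 of 16 animals (adjusted p = 0.404). In C57 this order turned with sex. Sham males had means of 428 ± 60.2 RPM in heart (SD, n = 8) and 715 ± 310 in WBC (SD, n = 7). Sham females had 364 ± 39.9 RPM in heart (SD, n = 7) and 85.2 ± 11.2 in WBC (SD, n = 4). The split was not tested. Only the last step was larger than its spread, WBC lying above RBC by 1.52 ± 0.825 (SD, n = 16) in 16 of 16 animals (permutation test, adjusted p = 0.000122). Across the 20 groups of tissue, strain and exposure, means ran from 567 ± 213 RPM in C3H sham lung (SD, n = 8) to 80.5 ± 30.6 in C3H sham RBC (SD, n = 8), and every group's range overlapped that of the next group in the order.

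**Figure D1:**
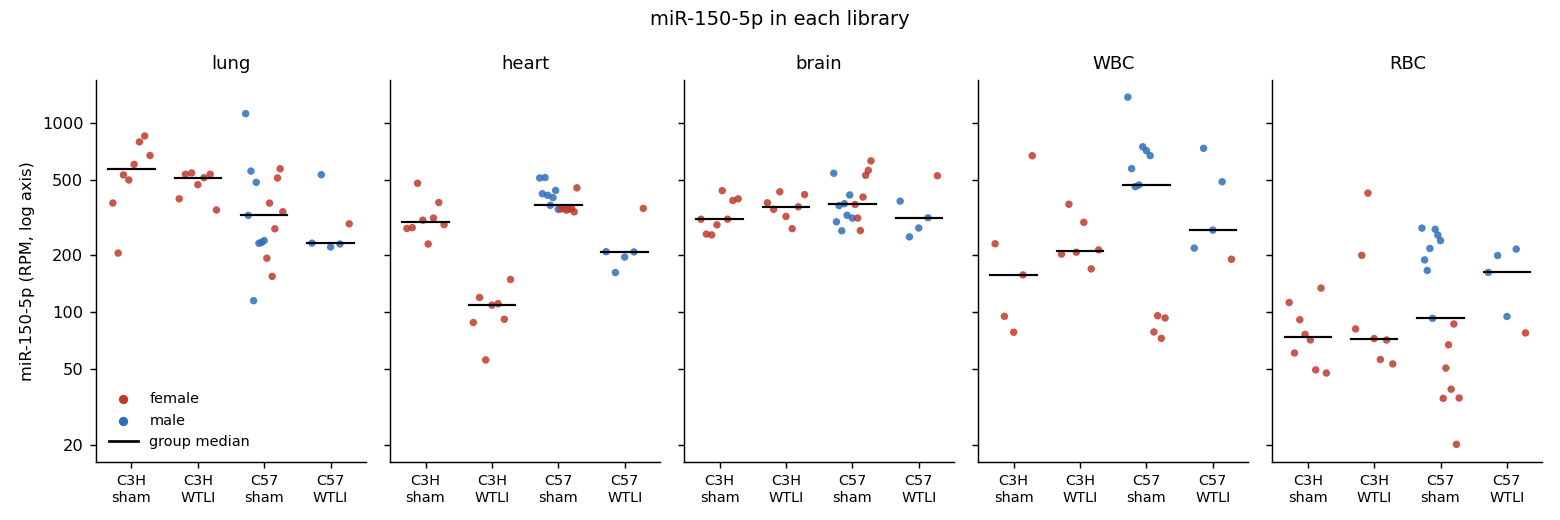
MiR-150-5p in RPM (log axis) in each library by tissue, strain and exposure, with females in red, males in blue and the group median as a line. The irradiated C3H hearts lie below all C3H sham hearts, and in the blood fractions of C57 sham mice the males lie above the females.

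Whether the blood fractions stood above or below the organs depended on the scaling. The joint limma fits below took the libraries of 1 mouse as independent. With the animal as a block no sign or call of miR-150-5p between tissues changed. In the joint limma fit with quantile normalisation, miR-150-5p was higher in WBC than in the organs by 0.99 (SE 0.19, adjusted p = 5.16e-07), below the threshold of 1.17 on the log2 scale that a call required, while 71.0% of the 542 miRNAs tested were called in that comparison. With the library total alone as the scale it was lower in WBC by 0.64 (adjusted p = 0.00622). RBC exceeded the organs by 0.21 in the quantile fit (adjusted p = 0.222, 70.5% of all called) while with the library total alone the value was -2.10 (adjusted p = 6.85e-19). Beside these values, miR-16-5p alone took 44.9% ± 6.12 of the counts in WBC (SD, n = 27) and 43.7% ± 7.97 in RBC (SD, n = 35), against means of 3.34% to 7.0% in the organs. The median of all tested miRNAs in WBC against the organs moved from -0.16 to -2.04 between these scalings, so relative to the median miR-150-5p was higher in WBC under both. WBC lay above RBC under every scaling tried, by 0.78 in the quantile fit (SE 0.22, adjusted p = 0.00179, with 16.4% of all called) and by 1.46 with the library total. Within strains the quantile fit gave 1.11 in C3H and 0.45 in C57, of which the latter did not pass (limma, adjusted p = 0.156).

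**Figure D2:**
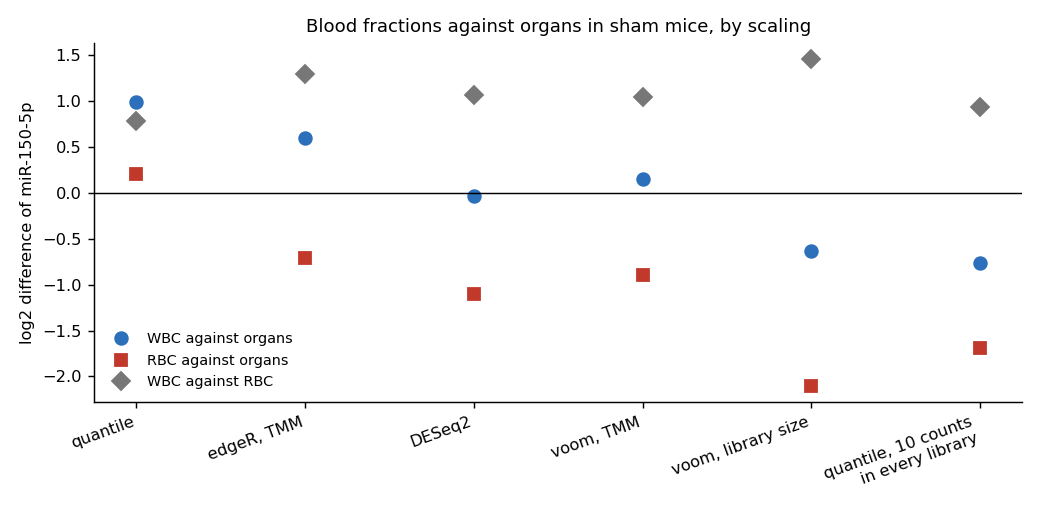
Log2 difference of miR-150-5p between blood fractions and the mean of the 3 organs, and between the fractions, in sham mice under 6 combinations of scaling, test and filter. WBC against organs runs from 0.99 down to -0.76 and RBC against organs from 0.21 down to -2.10, whereas WBC against RBC stays above 0.

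In both strains the change of miR-150-5p after WTLI was largest in heart. In C3H hearts the 8 sham mice had 229 to 480 RPM with a median of 298, and the 7 irradiated mice had 56.0 to 149 RPM with a median of 109. The groups did not overlap, and all 7 irradiated hearts lay below the lowest sham heart. The means were 104 ± 29.0 RPM (SD, n = 7) after WTLI and 320 ± 77.5 (SD, n = 8) in sham mice. In limma the difference was -1.63 on the log2 scale (SE 0.16, adjusted p = 1.42e-09), 3.10-fold lower, the smallest p of the 312 miRNAs tested and the fourth lowest log2 change. Of these 312, 6.73% were called, 15 higher and 6 lower, and scaling by the library total alone moved the median of all by -0.14.

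In C57 hearts the 15 sham mice had 339 to 514 RPM with a median of 367. The irradiated C57 mice had 209, 162, 196 and 208 RPM in the 4 males and 354 RPM in the female. All 4 irradiated males lay below every sham heart, and the irradiated female lay within the range of the 7 sham females, 339 to 454 RPM. The means were 226 ± 74.0 RPM (SD, n = 5) and 398 ± 59.8 (SD, n = 15). MiR-150-5p fell by 0.85 on the log2 scale (limma, SE 0.16, adjusted p = 3.12e-04), 1.80-fold and so short of the fold threshold, in a comparison that called 0.962% of the 312 miRNAs. Males alone gave -1.06 (limma, adjusted p = 1.81e-04). With the animal as a block in a joint fit of all tissues the C57 value was -0.87 with an adjusted p of 0.163, while the C3H value was -1.85 (limma, adjusted p = 1.32e-05). The difference of the changes between strains, -0.78 with C3H lower, did not pass the test (limma interaction, SE 0.22, adjusted p = 0.0624). The interaction called 0 of 312 miRNAs (0%), with 51 at an unadjusted p under 0.05, 0 called by edgeR and 2 by DESeq2.

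The libraries are also marked A or B in their titles, without a stated meaning. Within letter A the C3H heart value was -1.62 (limma, adjusted p = 3.02e-05) and within letter B -1.74 (limma, adjusted p = 1.04e-05). The C57 heart values were -1.10 (limma, adjusted p = 0.00156) within letter A and -0.64 (limma, adjusted p = 0.099) within letter B, which holds the irradiated female.

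**Figure D3:**
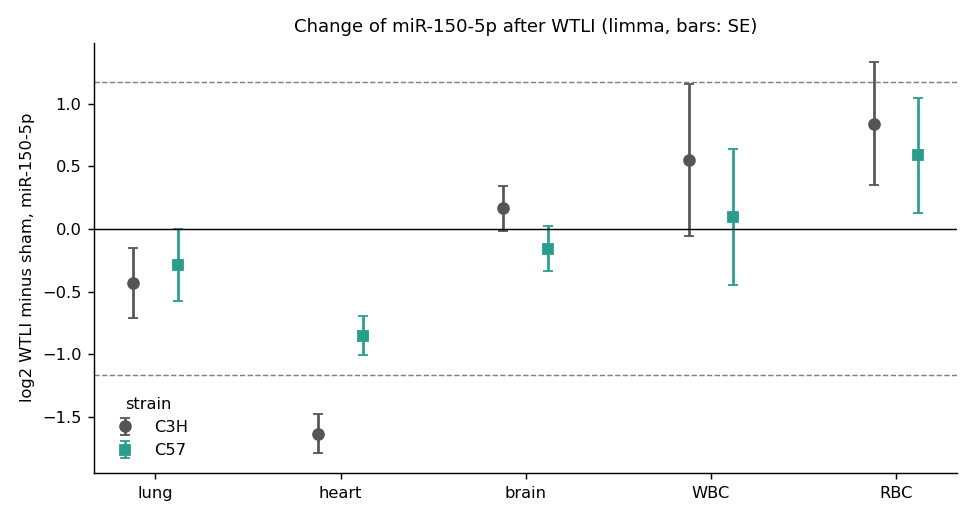
Log2 change of miR-150-5p from sham to WTLI in each tissue, from limma with quantile normalisation, for C3H (circles) and C57 (squares). Bars are SE and dashed lines mark the fold threshold of 1.17 on the log2 scale. The C3H heart value of -1.63 is the only one past it.

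Outside the heart no change of miR-150-5p passed the test. In C3H lungs the irradiated mice had 347 to 544 RPM with a median of 514 and the sham mice 205 to 853 RPM with a median of 568, so the irradiated range lay inside the sham range, with all 7 irradiated lungs below the sham median. The difference was -0.43 (limma, SE 0.28, adjusted p = 0.238), while 9.71% of 350 miRNAs were called. The letters differed here. In letter B the 4 sham lungs, 604 to 853 RPM, lay above the 4 irradiated ones, 347 to 536 RPM (limma, -1.01, adjusted p = 0.00264, under the fold threshold). In letter A the 4 sham lungs, 205 to 531 RPM, overlapped the 3 irradiated ones, 397 to 544 RPM (limma, 0.19, adjusted p = 0.808). In C57 lungs the 5 irradiated mice had 232, 533, 221, 229 and 293 RPM, within the sham range of 115 to 1120 RPM (limma, -0.29, SE 0.29, adjusted p = 0.485). That comparison called 6% of the miRNAs, and the lung interaction 0.286%.

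In brain, which lies outside the exposed field, the change was 0.16 in C3H (limma, adjusted p = 0.997) and -0.16 in C57 (limma, adjusted p = 0.719). No miRNA of 433 was called in either strain (0%) by limma, although 9 in C3H and 53 in C57 had an unadjusted p under 0.05, and edgeR called 0 in both strains and DESeq2 0 in C3H and 2 in C57.

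In the WBC fraction the irradiated C3H mice had 169 to 372 RPM with a median of 211, and the sham mice had 230, 95.2, 78.4, 157 and 671 RPM. The sham values enclosed all irradiated ones, and all 6 irradiated values lay above the sham median. The change was 0.55 (limma, SE 0.60, adjusted p = 0.938). In C57 WBC it was 0.10 (limma, SE 0.54, adjusted p = 0.991). In RBC the C3H sham mice had 47.8 to 134 RPM with a median of 73.9, and the irradiated mice 53.4 to 426 RPM with a median of 72.6. The medians were close, 4 of the 7 irradiated values lay below the sham median, and 2, both of letter A, lay above every sham value. The change in RBC was 0.84 in C3H (limma, SE 0.49, adjusted p = 0.332), but 0.41 with the library total alone as the scale, which did not pass either, and 0.59 in C57 (limma, SE 0.46, adjusted p = 0.958). Limma called 0 of 291 miRNAs in WBC and 0 of 229 in RBC in either strain (0%). At an unadjusted p under 0.05 there were 20 and 12 in WBC and 43 and 14 in RBC of C3H and C57. By edgeR 6 were called in C3H RBC and 1 in C57 RBC, by DESeq2 14 and 1, and neither called any in WBC. The interactions of brain, WBC and RBC called 0 miRNAs (0%) by limma, although 21, 5 and 12 had an unadjusted p under 0.05, edgeR called 0, and DESeq2 called 1, in RBC.

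The change in heart was set against that in the other tissues of the same mice. For each mouse the log2 RPM of another tissue was subtracted from that of its heart, and the irradiated and sham mice were compared by exact permutation tests (two-sided, adjusted over 8 comparisons). In C3H mice the heart fell relative to brain by 1.79 (exact permutation, adjusted p = 0.00249), with 7 of 7 irradiated mice below all sham mice. The values were -1.5 relative to lung, -1.93 relative to WBC and -2.06 relative to RBC, all passing (exact permutation, adjusted p = 0.00249, 0.0277 and 0.00249). With TMM scaling the value relative to lung was -0.99 (exact permutation, adjusted p = 0.00995). In C57 mice the heart fell relative to brain by 0.67 (exact permutation, adjusted p = 0.00542), with 1 of 5 irradiated mice below all sham mice, and relative to RBC by 1.35 (exact permutation, adjusted p = 0.0413). The values relative to lung, -0.67, and WBC, -0.97, did not pass (exact permutation, adjusted p = 0.140 and 0.209). Among C57 males alone the value relative to brain was -0.91 (exact permutation, adjusted p = 0.0162), and those relative to RBC, -0.80, lung, -0.90, and WBC, -0.33, did not pass (exact permutation, adjusted p = 0.0727, 0.172 and 0.455).

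The other lymphocyte miRNAs were read in the same hearts. The list held miR-342-3p, miR-342-5p, miR-155-5p, miR-181a-5p, miR-181b-5p and miR-146a-5p, all known from lymphocytes but less restricted to them than miR-150. In these libraries the list was not highest in leukocytes. In C3H sham mice its sum was 393 ± 189 RPM in WBC (SD, n = 5). It was 1326 ± 220 RPM in heart, 11818 ± 1638 in lung and 10603 ± 3239 in brain (SD, n = 8 each). In WBC against the organs 2 of the 6 members were higher and 4 lower. In C3H hearts 5 of the 6 were tested, 0 were called, where 6.73% of all were called, and the median change was 0.44, against -0.03 over all 312 miRNAs tested. MiR-342-3p was 0.71 higher after WTLI (limma, adjusted p = 0.0300) and miR-146a-5p, which dampens NF-kB signalling, 0.96 higher (limma, adjusted p = 2.29e-04), both under the fold threshold. MiR-155-5p, which rises in activated immune cells, differed by 0.11 (limma, adjusted p = 0.649). Their summed level was 939 to 1654 RPM in the sham and 1484 to 2474 RPM in the irradiated C3H hearts, and miR-342-5p was at 0 in every C3H heart. In C57 hearts 3 of the 5 tested had a positive and 2 a negative value (miR-181a-5p -0.25, miR-181b-5p -0.39), the median was 0.21, and 0 were called, where 0.962% of all were called.

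Markers of other blood cells gave a mixed picture in the same hearts. Of the 4 myeloid and pan-leukocyte miRNAs, miR-223-5p rose by 1.76 in C3H (limma, adjusted p = 0.00145). The other 3, miR-223-3p, miR-142a-3p and miR-142a-5p, were not called, and the list's median was -0.23. The summed level of this list was 732 to 9679 RPM in sham and 735 to 2524 RPM in irradiated C3H hearts. Of the 4 erythroid miRNAs, miR-451a fell by 1.33 in C3H hearts (limma, adjusted p = 0.0260), and miR-144-5p differed by -1.09 (limma, adjusted p = 0.0112), miR-144-3p by -1.40 (limma, adjusted p = 0.117) and miR-486a-5p by 0.16 (limma, adjusted p = 0.794). Their summed level was 608 to 2740 RPM in sham and 331 to 1722 RPM in irradiated C3H hearts. In RBC themselves miR-150-5p was at 80.5 ± 30.6 RPM (SD, n = 8) in C3H sham mice, below its level in sham hearts. The part of erythroid RNA in the heart result was not tested. In C57 hearts 0 of the 4 erythroid and 0 of the 4 myeloid miRNAs were called, near the 0.962% of all miRNAs called there. There 4 of 4 myeloid miRNAs (median 0.62) and 4 of 4 brain miRNAs (median 0.65) had a positive value, against a median of 0 over all. So had 1 of 4 erythroid (median -0.21), 1 of 4 cardiac muscle (median -0.06) and 1 of 5 epithelial miRNAs (median -0.53). The cardiac miR-1a-3p did not change in the fit. Of the cardiac muscle, brain, epithelial and endothelial lists, with 4, 4, 5 and 2 members tested, 0 were called in either strain. Of all miRNAs 6.73% were called in C3H and 0.962% in C57 hearts. In C3H hearts 4 of 4 cardiac muscle miRNAs had a negative value (median -0.61), as had 5 of 5 epithelial (median -0.67) and 3 of 4 brain miRNAs (median -0.42). Of the 2 endothelial miRNAs (median -0.33), miR-126a-5p had a negative value and miR-126a-3p did not change in the fit. Their summed level was 327570 ± 20715 RPM in sham (SD, n = 8) and 367260 ± 31904 in irradiated C3H hearts (SD, n = 7). MiR-499-5p, hosted by a myosin gene of heart muscle, differed by -0.85 in C3H hearts (limma, adjusted p = 0.00613), under the fold threshold. The irradiated C3H heart of replicate 3 stood apart, with a summed cardiac muscle level of 50690 RPM against 152410 to 246800 RPM in the other 6 irradiated and 216180 to 291000 RPM in the sham hearts, and it also had the lowest miR-150-5p, 56.0 RPM. Without it the change of miR-150-5p was -1.55 (limma, adjusted p = 2.93e-09). The sham heart of replicate 3 had both the highest myeloid sum, 9679 RPM, and the highest miR-150-5p, 480 RPM, and without it the change was -1.65 (limma, adjusted p = 4.72e-09). The part of cardiac and epithelial RNA in the result was not tested.

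**Figure D4:**
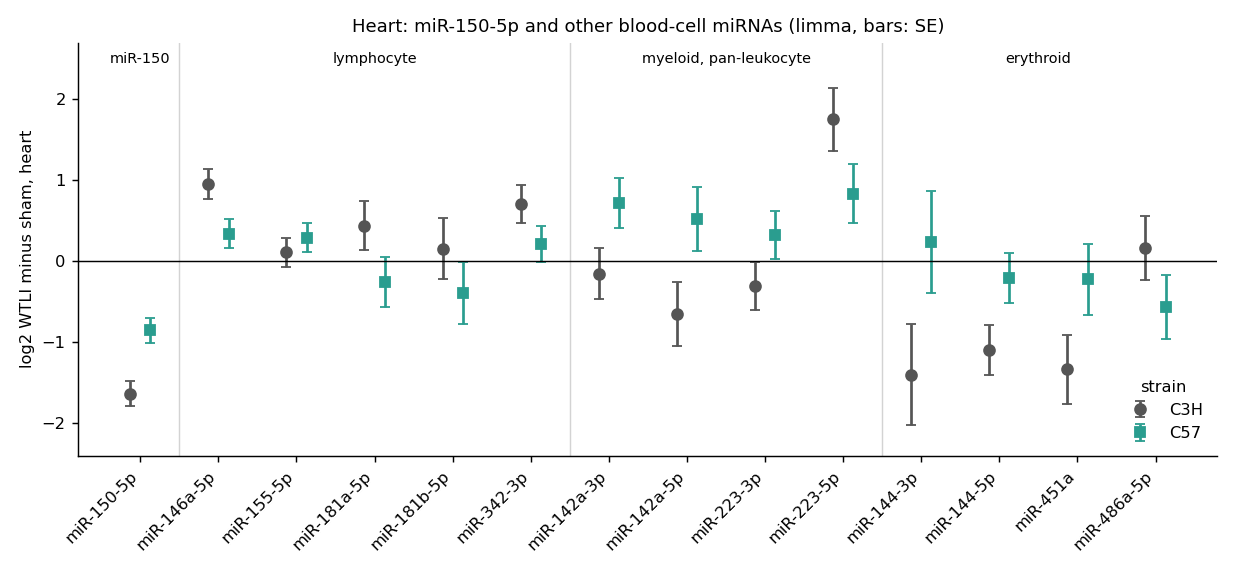
Log2 change from sham to WTLI in heart for miR-150-5p and the tested members of the lymphocyte, myeloid and erythroid lists, from limma, for C3H (circles) and C57 (squares), with SE as bars. MiR-150-5p lies at -1.63 and -0.85, while the lymphocyte miRNAs lie between 0.11 and 0.96 in C3H and on both sides of 0 in C57.

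In sham mice miR-150-5p also differed between the sexes, in the blood of C57 mice. Age differed with sex there, the males being the younger. In the WBC fraction the 4 sham females had 78.7, 95.9, 72.8 and 93.3 RPM and the 7 sham males had 461 to 1369 RPM with a median of 671. In RBC the 7 females had 20.1 to 86.7 RPM with a median of 39.2 and the 8 males had 92.9 to 278 RPM with a median of 228. In both fractions every male lay above every female. On the log2 RPM scale males were higher by 2.99 in WBC, 7.93-fold (exact permutation, adjusted over 5 tissues, p = 0.0152), and by 2.23 in RBC, 4.70-fold (exact permutation, adjusted p = 0.00155). The unadjusted values, 0.00606 and 0.000311, are the smallest that these designs can give.

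A limma fit with sex among the groups, added after the values were seen, gave 2.61 in WBC (SE 0.38, adjusted p = 1.49e-04) and 2.19 in RBC (SE 0.29, adjusted p = 2.73e-06). Both were called and had the smallest p of the 341 and 278 miRNAs tested, of which 7.62% and 6.12% were called. Over all alternatives the difference was 2.42 to 3.04 in WBC and 2.0 to 2.36 in RBC, and scaling by the library total alone moved the median of all miRNAs in WBC by 0.50. No male overlapped a female within letter A, with 3 males and 2 females in WBC and 4 and 4 in RBC, or within letter B, with 4 and 2 in WBC and 4 and 3 in RBC. In the organs of the same mice the sexes overlapped over both letters. Males differed from females by 0.07 in lung (exact permutation, adjusted p = 0.875), 0.23 in heart (exact permutation, adjusted p = 0.0528) and -0.25 in brain (exact permutation, adjusted p = 0.298), where the limma fit called 2.27%, 10.1% and 4.87% of all miRNAs. Within single letters some organs separated too. In hearts of letter A all 4 males, 415 to 514 RPM, lay above the 4 females, 346 to 355 RPM, a log2 difference of 0.40 (exact permutation, adjusted p = 0.0714). In brains of letter B all 4 males, 314 to 416 RPM, lay below the 3 females, 529 to 630 RPM, a difference of -0.69 (exact permutation, adjusted p = 0.143). The other letter overlapped in both organs, with 0.03 in heart and 0.08 in brain. Whether the difference between the sexes itself differed between blood and organs was not tested.

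MiR-342-3p moved with miR-150-5p between the sexes. It was at 23.1 ± 2.35 RPM (SD, n = 4) in female and 110 ± 57.8 (SD, n = 7) in male WBC, and the ranges, 21.1 to 26.2 and 53.2 to 234 RPM, did not overlap. In RBC it was at 9.72 ± 5.13 RPM (SD, n = 7) in females and 30.6 ± 11.5 (SD, n = 8) in males, with overlapping ranges. It was called in both fractions (limma, 1.45, adjusted p = 0.0181 in WBC and 1.80, adjusted p = 4.86e-04 in RBC). Over the lymphocyte list 5 of 6 members were tested in each fraction, 1 was called, where 7.62% of all were called in WBC and 6.12% in RBC, and the median was 0.79 in WBC and 0.78 in RBC, against -0.01 and -0.07 over all miRNAs tested. The summed level of that list was 548 to 972 RPM in female and 1741 to 2531 RPM in male WBC, and 130 to 340 and 211 to 380 RPM in RBC.

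Markers of other cell types were read in the same libraries, where 7.62% of all miRNAs were called in WBC and 6.12% in RBC. MiR-223-3p was higher in male WBC by 1.46 (limma, adjusted p = 0.0408), whereas in RBC the value was -1.16 (limma, adjusted p = 0.0172, under the fold threshold). Over the 4 myeloid and pan-leukocyte miRNAs, 4 of 4 had a positive value in male WBC with 1 called and a median of 0.50, and their summed level was 16199 to 19812 RPM in females and 22987 to 32777 RPM in males, without overlap. In RBC 1 of 4 was positive and 0 were called, with a median of -0.47, and the sums overlapped at 17589 to 45160 and 21453 to 31348 RPM. Of the 4 erythroid miRNAs 0 were called in either fraction, with medians of -0.65 in WBC and -0.09 in RBC. The brain miRNA miR-9-5p fell by 1.55 in male WBC (limma, adjusted p = 0.0465), and no member of the cardiac, epithelial or endothelial lists was called in either fraction. Library totals of WBC were 2514196 to 5060541 counts in females and 2354921 to 4634280 in males. MiR-16-5p took 43.2% to 45.6% of counts in female and 31.0% to 46.2% in male WBC, and 36.8% to 55.9% and 46.5% to 53.5% in RBC. The part of myeloid cells and of miR-16-5p in the difference was not tested.

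**Figure D5:**
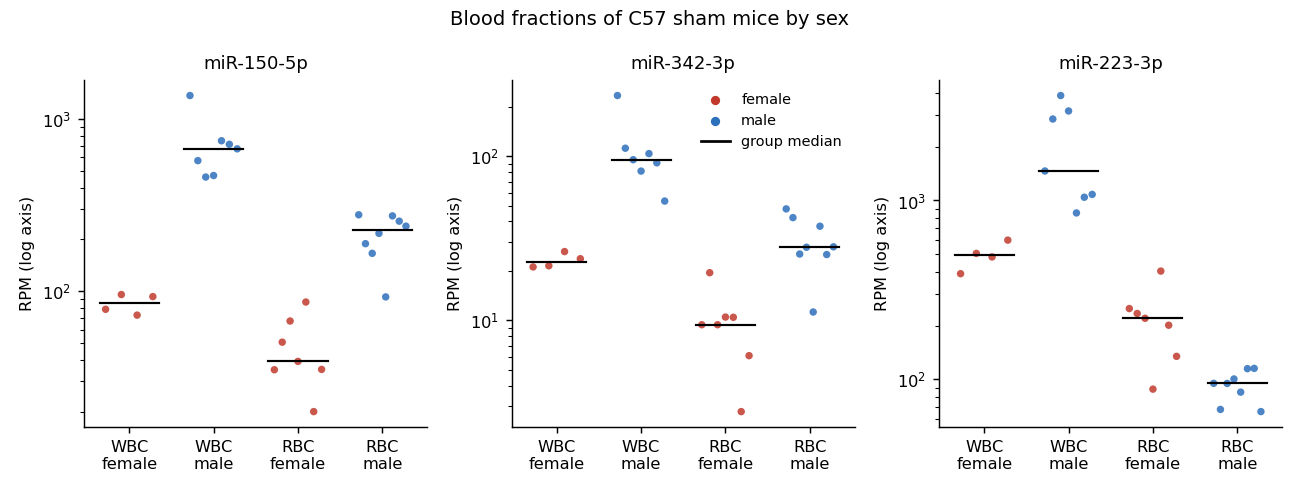
RPM (log axis) of miR-150-5p, miR-342-3p and miR-223-3p in each WBC and RBC library of C57 sham mice, females in red and males in blue, with the median as a line. MiR-150-5p of males lies above that of females in both fractions, while miR-223-3p is higher in males in WBC and lower in RBC.

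The split by sex bears on the C57 comparison of WTLI in blood, since 4 of the 5 irradiated C57 mice were male. The irradiated males had 218, 734, 272 and 489 RPM in WBC, of which 2 lay within the range of the sham males and 2 below it, and the irradiated female had 191 RPM, above the 4 sham females. In RBC the irradiated males had 162, 199, 95.0 and 216 RPM, all within the range of the sham males, and the irradiated female had 77.8 RPM, within that of the females. With males alone the C57 change was -0.69 in WBC (limma, adjusted p = 0.644) and -0.19 in RBC (limma, adjusted p = 0.704), the opposite sign of the values with both sexes.

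The strains were compared in female sham mice only. In WBC the 4 C57 females lay at 72.8 to 95.9 RPM and the 5 C3H females at 78.4 to 671 RPM, with overlapping ranges. The C57 minus C3H difference of miR-150-5p was -1.97 (limma, SE 0.41, adjusted p = 0.00124), 3.91-fold lower in C57, where 16.1% of 341 miRNAs were called. Without the C3H mouse at 671 RPM the value was -1.64 (limma, adjusted p = 0.00474). With the library total as the scale it was -1.08 and did not pass (limma, adjusted p = 0.0785), and that scaling moved the median of all miRNAs by 0.75. In heart C57 was 0.37 higher (limma, adjusted p = 0.0439, under the fold threshold, 11.4% of all called). The differences were -0.71 in lung (limma, adjusted p = 0.105, 5.54% called), 0.37 in brain (limma, adjusted p = 0.104, 3.04% called) and -0.57 in RBC (limma, adjusted p = 0.192, 7.19% called).

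Within mice, the levels in the fractions of blood were related in part. In C57 the males and females formed separate clusters, so for WBC and RBC the correlation over all mice, which is set by those clusters too, is not given, and r is given within 1 sex of a group. Among the 7 C57 sham males, WBC and RBC gave r = 0.64 (Pearson) and rho = 0.89 (Spearman) over animals (exact permutation, adjusted over 2 groups, p = 0.0786 and 0.0246). Without the 2 animals farthest from the WBC median r was 0.99. Among the 6 irradiated C3H females r was 0.68 and rho 0.09 (exact permutation, adjusted p = 0.264 and 0.919), and r was -0.32 without the 2 farthest animals, so this relation rested on them. Of the 3 pairs of organs, none passed the test over the 35 mice after removal of the 4 group means. Lung and brain came closest, with r = 0.47 and rho = 0.41 (permutation test, adjusted over 10 pairs, p = 0.054 and 0.121), 0.33 without the 2 farthest animals, and 0.42 when the letter was removed too. With sex removed r was 0.53 and passed, while rho was 0.44 and did not (permutation test, adjusted p = 0.0442 and 0.102). The heart gave r = 0.09 with lung and 0.12 with brain (permutation test, adjusted p = 0.763 for both), and 0.27 and 0.38 after quantile normalisation (permutation test, adjusted p = 0.188 and 0.0879).

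The miRNAs most like miR-150-5p over the 20 group means of log2(RPM + 1) were not among the lymphocyte markers. Among 400 miRNAs with at least 10 RPM in a group, miR-151-3p came first with a Pearson r of 0.84, followed by miR-467e-5p at 0.81, miR-26a-1-3p at 0.81, miR-99b-5p at 0.80 and miR-125a-5p at 0.77. These are descriptions over 20 points that share tissues and library composition. Of the lymphocyte markers, miR-146a-5p stood at place 12 (r = 0.74), miR-181b-5p at 14 (r = 0.74), miR-181a-5p at 21 (r = 0.73), miR-342-3p at 22 (r = 0.73) and miR-155-5p at 166 (r = 0.47). The erythroid miRNAs had r between -0.56 and -0.62.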

How the data were processed

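Small RNA libraries were made, sequenced and aligned to mouse miRNAs (mm 10) by the authors. The deposited tables, 1 per tissue, hold whole-number counts of 1915 mature miRNAs, deposited without normalisation; for their own tests the authors scaled them by library size and by quantiles. How reads were assigned to arms and whether reads or molecular identifiers were counted was not given in the sources used here. All columns named a sample (0 columns of no sample).

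The 20 groups, the sex, the letter and the animal came from the labels. Same-numbered libraries of a group come from 1 mouse, since the titles share its number. Tissues were paired by animal in the permutation tests and correlations, but not in the main joint fit. All pairs of libraries within a group differed by more than counting noise (smallest chi-square per degree of freedom 15.5).

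Counts were filtered (filterByExpr of edgeR 4.0.16, count minimum 10, total minimum 15), transformed by voom with quantile normalisation to log2 RPM and fitted by limma 3.58.1 in R 4.3.3, with 1 fit per tissue over 4 groups, 6 groups with sex for strain and sex, and 1 joint fit over 20 groups between tissues. Adjusted p-values are Benjamini-Hochberg values over all miRNAs tested. A call needed an adjusted p under 0.05 and a fold of at least 2.25. Permutation tests (scipy 1.17.1) were two-sided on log2 RPM of the library total and exact, or used 100000 resamples where paired over more animals or for correlations over all mice. A pseudocount of 0.5 RPM was used for the 3p arm.

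The members and marker lists were chosen with earlier results of these data known. Named miRNAs were the 2 arms, the 29 markers of 7 lists (lymphocyte, myeloid and pan-leukocyte, erythroid, cardiac muscle, brain, epithelial, endothelial), those sharing a seed with an arm where its sequence was at hand, and the 5 most like miR-150-5p. MiR-208a-3p, miR-124-3p and miR-16-5p were used to describe the tissues, and miR-16-5p was chosen after its values were seen. In simulated heart counts limma called 29 of 30 tested miRNAs changed by 2 on the log2 scale (96.7%) and 0 unchanged ones. The simulation gave all miRNAs the same dispersion and held no effect of strain, sex, letter or outlying libraries. It therefore does not give the recovery of smaller changes or of noisier miRNAs. The alternatives were edgeR, DESeq2 1.42.0, other scalings and filters, dropping the fold minimum, adding the letter or the sex as a covariate, subsets of the mice, the animal as a block, and leaving out single libraries. Chosen after seeing the data were the limma fits by sex, the sex values within letters, the correlations with sex or letter removed or within 1 sex, the heart values relative to other tissues in C57 males alone, and single libraries left out of the strain and sex comparisons.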

Additional observations from a re-analysis of the deposited data

Results flagged for a closer look

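In 4 of the 15 groups of 4 to 10 libraries the highest miR-150-5p value stood apart from the others of its group by Dixon's test at the 95% level, which flags about 1 in 20 groups by chance. In RBC of irradiated C3H mice replicate 3 had 425.9 RPM, with the next library at 199.8. In WBC of C3H sham mice replicate 6 had 671.0 RPM, with the next at 230.1. In hearts of irradiated C57 mice replicate 5, the only female, had 353.6 RPM, with the next at 208.9. In lungs of irradiated C57 mice replicate 2 had 532.7 RPM, with the next at 293.1, and the same mouse had the highest WBC value of its group.

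The WTLI change in heart differed from that in other tissues of the same mice (exact permutation tests on the difference within each mouse). In C3H mice it was lower than in lung by -1.497 on the log2 scale, than in brain by -1.789, than in WBC by -1.929 and than in RBC by -2.064. In C57 mice it was lower than in brain by -0.6722 and than in RBC by -1.346, of which the latter did not pass with TMM scaling, in males alone or without any 1 of the 4 irradiated males.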

How the results depend on the processing

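The fall of miR-150-5p in C3H hearts was called under all 29 alternatives, from -1.85 to -1.52. In C57 hearts the value was negative under all 35, from -1.10 to -0.64, and without a fold minimum its -0.85 passed. Leaving out single libraries gave -1.74 to -1.55 in C3H heart, -1.02 to -0.79 in C57 heart, -0.48 to -0.35 and -0.50 to -0.22 in C3H and C57 lung, 0.13 to 0.23 and -0.36 to -0.06 in brain, 0.30 to 0.88 and -0.10 to 0.23 in WBC, and 0.65 to 0.98 and 0.40 to 0.82 in RBC. All libraries were left out in turn in heart and C3H WBC, and only the irradiated ones elsewhere. Among these, the one change of sign came in C57 WBC without irradiated replicate 2 (-0.10). The animal as a replicate block in the joint fit turned C57 WBC to -0.0233 and changed no other sign or call of miR-150-5p.

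Values that were not called also changed sign. In C57 WBC the change was -0.19 by edgeR, -0.25 by DESeq2, -0.27 with sex as a covariate, -0.69 in males alone and -0.0762 in letter B. In C57 RBC males alone gave -0.19. Letter A gave 0.19 in C3H and 0.062 in C57 lung, and letter B -0.17 in C3H brain and -0.19 in C3H WBC. The interactions in lung and RBC became 0.0454 and -0.0734 with the library total as the scale. Among sham tissues WBC against organs became -0.0324 by DESeq2, -0.64 with the library total and -0.76 with at least 10 counts in every library. RBC against organs became -0.71 by edgeR, -1.10 by DESeq2, -0.90 with TMM, -2.10 with the library total and -1.69 with the strict filter. WBC against RBC passed the fold threshold by edgeR (1.30) and with the library total (1.46). The strain difference in WBC did not pass with the library total (-1.08), and single libraries left out gave -2.21 to -1.64. The cause of these changes was not tested.

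The heart value relative to RBC in C57 mice did not pass with TMM scaling (-1.25), in males alone (-0.80) or without any 1 of the 4 irradiated males (-1.73 to -1.11 over all 5 left out). In C3H mice quantile and TMM scaling gave -1.2 and -0.993 relative to lung, -1.8 and -1.65 to brain, -2.07 and -1.88 to WBC and -2.48 and -2.13 to RBC, and all passed. With single mice left out, the other 3 C57 values ran from -0.83 to -0.33 relative to lung, -0.70 to -0.61 to brain and -1.34 to -0.57 to WBC. The male excess in blood kept its size within letters, 3.04 and 2.96 in WBC and 2.16 and 2.33 in RBC, where it did not pass (exact permutation, adjusted p = 0.333 and 0.167 in WBC and 0.0714 and 0.143 in RBC, where the smallest unadjusted p that the groups allow is 0.2 and 0.133 in WBC and 0.0286 and 0.0571 in RBC), and over single libraries left out, 2.44 to 2.77 and 2.0 to 2.32. In lung the male minus female value became -0.72 in letter B. In heart it became -0.15 by edgeR, -0.0553 by DESeq2 and -0.15 with TMM, and in brain 0.0814 in letter A, while edgeR (-0.44) and DESeq2 (-0.45) passed in brain. With the means of sex removed, WBC and RBC over 26 mice gave r = 0.29 (0.49 without the 2 farthest mice) and rho = 0.53, which did not pass (permutation test, adjusted p = 0.310 and 0.0714), lung and brain gave 0.53 and passed, and WBC with heart (-0.0468), WBC with brain (0.14) and RBC with brain (0.0176) changed sign. RBC with lung became -0.0706 after quantile normalisation, and RBC with heart 0.12 with the letter removed. For the 3p arm the alternatives say nothing of stability, since each comparison held at most 1 count per group.

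The number of miRNAs called after WTLI moved by over 1.5 times in these cases. In C3H lung it went from 34 to 117 without a fold minimum and 13 with the strict filter. In C57 lung it went from 21 to 58 and 8, 11 in that strain alone, 3 in males, 6 in letter A and 32 in letter B. In C3H heart it went from 21 to 52 and 10, 38 in letter A and 11 in letter B. In C57 heart it went from 3 to 11 without a fold minimum, 5 with the library total, 11 with the loose filter, 6 in males and 8 with the block. In brain C57 it went from 0 to 2 by DESeq2, 2 with the loose filter, 3 with sex as a covariate, 2 in males and 3 with the block. In WBC it went from 0 to 2 in C3H with the block and 5 in C57 with the loose filter. In C3H RBC it went from 0 to 6 by edgeR, 14 by DESeq2, 1 with the loose filter and 13 with the block, and in C57 RBC to 1 by edgeR, DESeq2, the loose filter and letter A and 2 in males. Leaving out the same single libraries gave 29 to 33 and 15 to 27 in C3H and C57 lung, 16 to 32 (32 without irradiated replicate 1) and 3 to 5 (5 without sham replicate 13) in heart, 0 to 2 in C3H RBC and 0 elsewhere.

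Depth limits only the 3p arm, at 3 counts in all. The sex difference in blood, the C57 changes with 1 irradiated female, and the C3H mice, which were all female, cannot be separated further with these groups. P-values measure the spread between these mice, except in the main joint fit between tissues, which took libraries of 1 mouse as independent. Strain and month after exposure were confounded, as were sex and age.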

Other observations

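A single C57 sham male, replicate 1, had the highest miR-150-5p of its group in lung (1120 RPM), WBC (1369 RPM) and RBC (278 RPM). Its heart, at 512 RPM, was within the range of the other sham hearts.

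In brain the letters separated some sham groups. The 3 C57 sham females of letter B had 529, 562 and 630 RPM and the 4 of letter A 270 to 406 RPM, while the C57 sham males overlapped between letters. The 4 C3H sham females of letter A had 256.26 to 310.08 RPM and the 4 of letter B 310.32 to 438.69 RPM, only just apart. These groups were chosen after their values were seen, and the differences were not tested.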
